A study of Mus musculus with 12 samples.

Results

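Chemokines are small secreted proteins that steer the movement of leukocytes through G protein-coupled receptors. The ligands and receptors analysed here were the gene rows whose symbol is Ccl, Cxcl, Ccr or Cxcr followed by digits and at most 1 letter, with Xcl1, Cx3cl1, Cx3cr1 and Ackr3 added. This rule found 57 of 24060 gene rows, 39 of them ligands and 18 receptors. Their RNA was measured in 12 rhabdoid tumors. All came from mice of the genotype P0-CreC;Smarcb1flox/flox. Their Cre recombinase is active in early neural crest cells, where it deletes both floxed copies of Smarcb1. The tumors came from the retro-orbital space (4 tumors), the cheek (3 tumors), the meninges (3 tumors), the vestibular nerve (1 tumor) and the trigeminal nerve (1 tumor). All 12 carry the same genotype, no treatment is named, and no normal tissue was analysed here, so levels are compared between tumors and locations only. The ages of the mice are not given in the labels used here. Each tumor was dissected, frozen and sequenced whole, so host blood vessels and leukocytes, which keep Smarcb1, are part of every value. The identifiers of cheek 1 and meninges 1 begin alike, as do those of cheek 2 and cheek 3 and those of retro-orbital 3 and the trigeminal nerve tumor, and whether such tumors came from 1 animal is not stated.

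Levels are RPKM, reads scaled to transcript length and library size, a scale on which genes of different length can be set side by side. The fragment totals behind them, recovered from the steps between low values, ranged from 13206168 to 57128422 per tumor. They are estimates, to be read as lower bounds. RNA of the targeted gene, Smarcb1, was listed at 1.70 to 6.31 RPKM over the 12 tumors. The pan-leukocyte gene Ptprc was at 6.93 to 51.5 RPKM, lowest in the vestibular nerve tumor and highest in retro-orbital 4. Macrophage markers were abundant in all tumors, with a summed level of 623 to 3210.2 RPKM over 11 genes, whereas the summed T cell list of 7 genes reached at most 33.4 RPKM. The summed Schwann cell list of 4 genes was at 4.31 to 36.3 RPKM. Within it, Sox10, a marker of Schwann cells and their precursors, was at 0.0878 to 3.56 RPKM. In such bulk samples, fewer cells of a type and less RNA per cell cannot be told apart.

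As background, chemokines fall into families named after the spacing of their first cysteines, CC, CXC, XC and CX3C. Inflammatory members are made on demand and draw in monocytes, neutrophils or T cells, and homeostatic members are made constantly and place cells within tissues. In the nervous system, astrocytes, microglia, vessels and the meninges are known sources. The atypical receptor Ackr3 binds Cxcl12 and removes it from the surroundings without G protein signalling.

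Many inflammatory chemokine genes lie in clusters. The CXC ligands that follow are neighbours on chromosome 5, in positions from GENCODE M21 on GRCm38. Cxcl1 lies at chr5:90891241-90893115, Cxcl2 at chr5:90903871-90905938, Cxcl3 at chr5:90786103-90789600 and Cxcl5 at chr5:90759360-90761624, all on the plus strand, and these bind Cxcr2. Cxcl9 lies at chr5:92321347-92328079, Cxcl10 at chr5:92346638-92348889 and Cxcl11 at chr5:92359544-92365485, all on the minus strand, and these bind Cxcr3. The 250 bases before the RefSeq start of the gene are shown for 1 member of the second cluster and 3 of the first. Capitals mark matches on either strand to the core of the interferon-stimulated response element, TTTCNNTTTC, or to the 10-base kappaB motif. Sequences are RefSeq promoters on GRCm38.p6, written 5′ to 3′ on the strand of the gene. The windows lie at chr5:92348890-92349139 (minus strand), chr5:90890995-90891244 (plus strand), chr5:90903649-90903898 (plus strand) and chr5:90785851-90786100 (plus strand). RefSeq and GENCODE starts differ, so the Cxcl1 and Cxcl2 windows end inside the GENCODE gene. They end at 90891244 and 90903898, where the GENCODE genes start at 90891241 and 90903871.
Cxcl10: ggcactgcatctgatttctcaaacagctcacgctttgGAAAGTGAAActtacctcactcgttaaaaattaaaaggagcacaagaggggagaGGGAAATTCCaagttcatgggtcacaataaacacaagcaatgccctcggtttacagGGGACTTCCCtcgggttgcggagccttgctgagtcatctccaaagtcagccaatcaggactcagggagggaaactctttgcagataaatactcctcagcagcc
Cxcl1: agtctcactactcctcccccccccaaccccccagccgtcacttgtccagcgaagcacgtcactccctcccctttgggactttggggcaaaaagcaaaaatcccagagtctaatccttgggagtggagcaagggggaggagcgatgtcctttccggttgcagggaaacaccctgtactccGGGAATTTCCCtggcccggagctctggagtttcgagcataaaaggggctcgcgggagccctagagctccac
Cxcl2: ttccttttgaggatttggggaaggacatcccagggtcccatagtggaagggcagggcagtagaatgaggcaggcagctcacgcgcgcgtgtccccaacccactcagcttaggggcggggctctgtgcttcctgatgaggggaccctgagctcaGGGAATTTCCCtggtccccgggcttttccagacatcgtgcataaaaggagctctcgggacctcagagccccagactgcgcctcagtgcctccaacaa
Cxcl3: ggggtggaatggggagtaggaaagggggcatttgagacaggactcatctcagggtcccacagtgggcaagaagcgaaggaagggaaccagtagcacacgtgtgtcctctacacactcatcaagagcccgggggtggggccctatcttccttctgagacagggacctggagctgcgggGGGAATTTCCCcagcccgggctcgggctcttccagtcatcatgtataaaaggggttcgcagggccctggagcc

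The Cxcl10 window holds 1 match to the interferon element, as its reverse complement GAAANNGAAA, and 2 matches to the kappaB motif, which do not overlap it. In Cxcl1, Cxcl2 and Cxcl3, 2 overlapping kappaB matches form the same 11-base run GGGAATTTCCC. RefSeq windows were matched for 41 of the 57 members by symbol. Of these, 3 members (Ccl19, Cxcl10 and Cxcl14) held the interferon element, which 2.98% of all 32851 windows hold. The kappaB motif stood in the windows of 8 members (Ccl9, Ccl20, Ccr3, Ccr6, Cxcl1, Cxcl2, Cxcl3 and Cxcl10), against 3.90% of all windows. The Cxcl9 window, not shown, held neither motif, and Cxcl5 and Cxcl11 had no matched window. A match describes the letters only and not the binding of a factor.

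Of the 57 members, 22 reached 1 RPKM in all 12 tumors, 16 of them ligands and 6 receptors. At the other end, 9 members stayed below 1 RPKM in every tumor, among them Ccl21a, Ccl21b, Ccl21c and Ccl27b, which were listed at 0 throughout. These 4 have near-identical copies, and only uniquely mapped reads were kept, so their values are uncertain. The filter for all tests here, 1 RPKM in at least 3 tumors, was met by 38 members, 28 ligands and 10 receptors. Among the 19 members outside it, 10 reached 1 RPKM in 1 or 2 tumors. The summed level of the 39 ligands ran from 137 RPKM in the vestibular nerve tumor to 1646 in retro-orbital 4. Over the 18 receptors, the sum ran from 41.8 to 315 RPKM in the same 2 tumors. Few tumors held most of the peaks, as 16 members had their highest value in retro-orbital 4, 11 in retro-orbital 3, 7 in meninges 2 and 6 in retro-orbital 2. Together these are 40 of the 53 members with any value above 0. Among the 38 members that met the filter, 10, 6, 7 and 6 peaked in these tumors, in that order. The same count over all genes was not made.

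**Figure D1:**
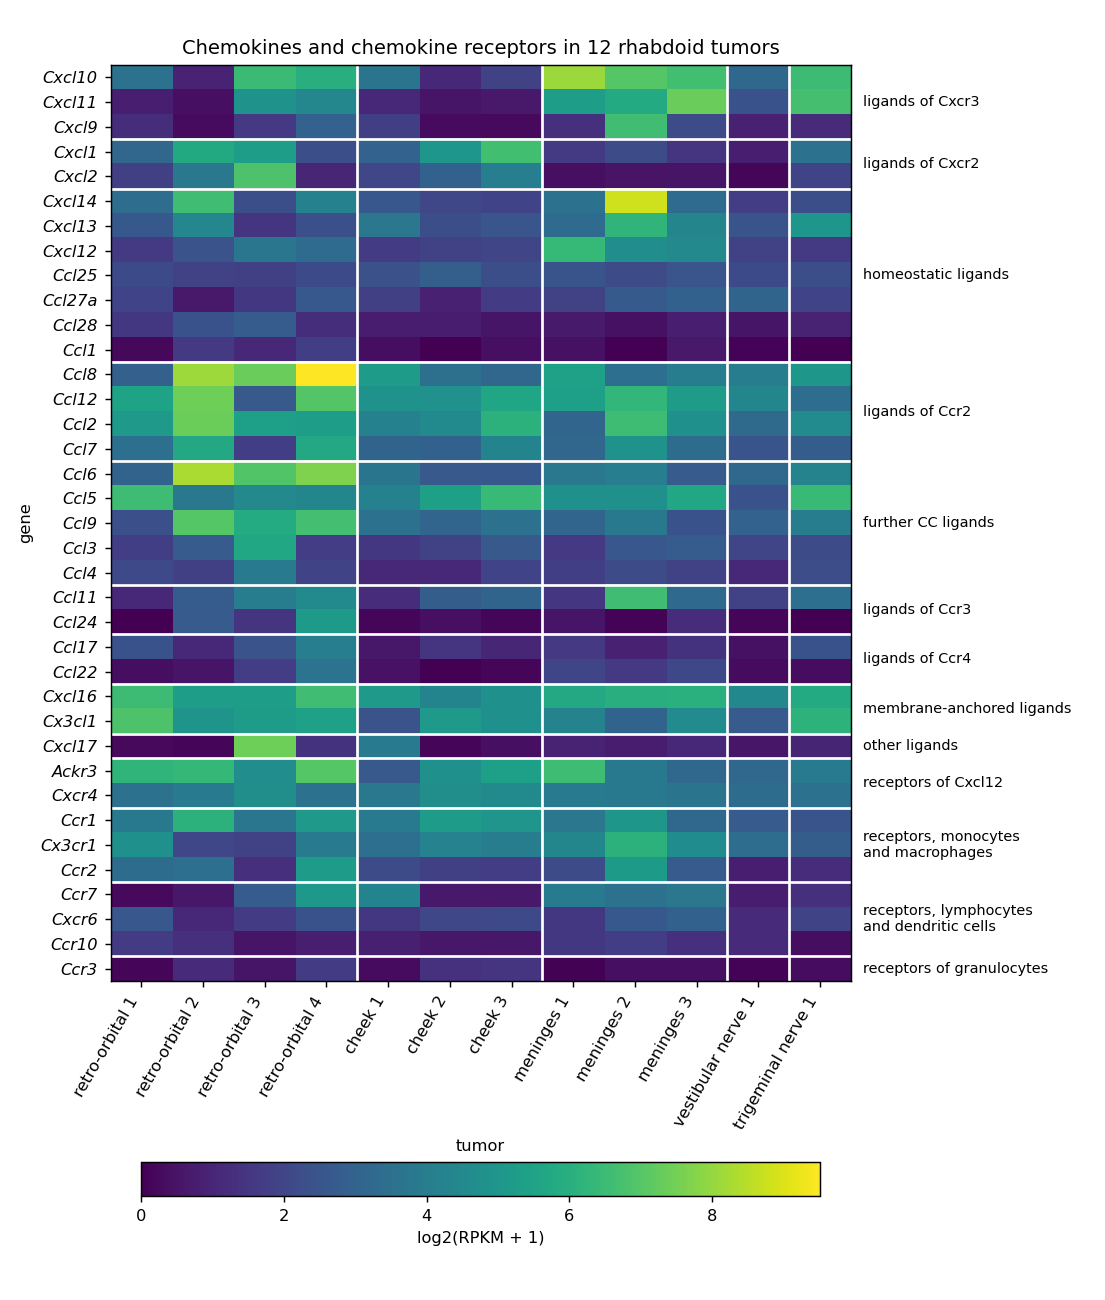
Level of 37 of the 38 members that reached 1 RPKM in at least 3 tumors (rows, grouped by role) in the 12 tumors (columns), with white lines between roles and between locations, as log2(RPKM + 1) by color. Cxcl10, Cxcl11 and Cxcl12 are bright in the 3 meninges tumors, Ccl8 and Ccl6 in retro-orbital 2, 3 and 4, and the row of Cxcr4 varies little.

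Meninges tumors carried the most RNA of the Cxcr3 ligands, which draw in activated T cells and NK cells and are typical interferon targets. Cxcl10 was at 10.6, 0.897, 88.6 and 63.2 RPKM in retro-orbital tumors 1 to 4, 11.6, 1.06 and 2.55 in cheek tumors 1 to 3, 269.6, 129 and 98.1 in meninges tumors 1 to 3, 8.0 in the vestibular nerve tumor and 91.9 in the trigeminal nerve tumor. Cxcl11 was at 0.760, 0.297, 28.1 and 20.2 RPKM in retro-orbital tumors 1 to 4, 1.17, 0.459 and 0.567 in cheek tumors 1 to 3, 39.8, 56.0 and 162 in meninges tumors 1 to 3, 4.21 in the vestibular nerve tumor and 103 in the trigeminal nerve tumor. For both genes, the 3 meninges tumors lay above all retro-orbital and cheek tumors, and the trigeminal nerve tumor was close to them. Within the retro-orbital group, tumors 3 and 4 were high and tumors 1 and 2 low. Cxcl9, the other ligand of this receptor, was at 94.8 RPKM in meninges 2 and at 0.182 to 7.02 in the other 11 tumors. Summed over the 3 ligands, the level was 263 to 311 RPKM in the meninges tumors and 1.73 to 15.2 in the cheek tumors. Against the cheek tumors, Cxcl11 differed in the limma fit by 5.41 (meninges minus cheek, SE 1.16, adjusted p = 0.111) and Cxcl10 by 5.07 (meninges minus cheek, SE 1.31, adjusted p = 0.143) on the log2(RPKM + 1) scale. Against the retro-orbital tumors, the log2 difference of Cxcl11 was 3.56 (meninges minus retro-orbital, SE 1.09, adjusted p = 0.473) and that of Cxcl10 3.01 (meninges minus retro-orbital, SE 1.23, adjusted p = 0.537). None of these 4 differences passed 0.05 after adjustment over 14745 genes. The receptor itself stayed low, with Cxcr3 at 3.53 RPKM in retro-orbital 4, 1.96 in meninges 2 and 0 to 0.664 elsewhere.

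Astrocyte markers were also high in the meninges tumors, though not only there. The summed level of Gfap, Aqp4, Aldh1l1 and Slc1a2 was 95.7 to 385 RPKM in the meninges tumors, 126 in the trigeminal nerve tumor, 277 in retro-orbital 3 and 44.1 in the vestibular nerve tumor. In the other 6 tumors it was 1.11 to 19.5, and none of the 4 markers was at 0 in any tumor. The astrocyte sums of retro-orbital 4 and cheek 1, 19.5 and 19.2 RPKM, differed in make-up. Gfap was at 13.3 and 0.589 RPKM and Aqp4 at 2.83 and 15.4, in that order. The Cxcr3 ligand sum was 196 RPKM in the trigeminal nerve tumor, 119 in retro-orbital 3 and 90.5 in retro-orbital 4. It was 15.2 RPKM in cheek 1 and 13.1 in the vestibular nerve tumor. The oligodendrocyte list was highest in the meninges tumors as well, at 38.0 to 66.5 RPKM against 2.76 to 33.3 elsewhere. The part of these lists in the ligand levels was not tested.

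**Figure D2:**
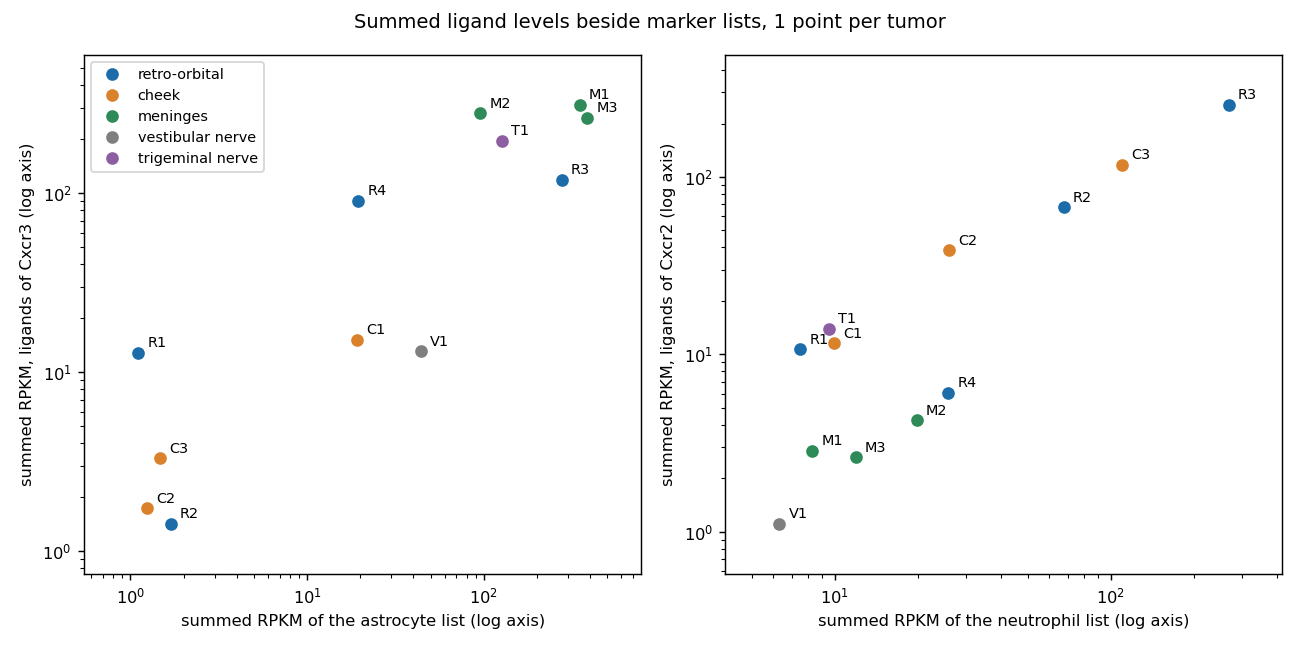
Left, summed RPKM of the 3 Cxcr3 ligands against the summed RPKM of 4 astrocyte markers; right, summed RPKM of the 5 Cxcr2 ligands against 4 neutrophil markers, both on log axes, with 1 point per tumor named by the first letter of its location and its number. The meninges tumors (M) lie at the upper right on the left side, and retro-orbital 3 (R3) and cheek 3 (C3) at the upper right on the right side.

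Cxcl12, the homeostatic ligand of Cxcr4 and Ackr3 that is made by stromal and meningeal cells, also peaked in the meninges tumors. Its level was 2.05, 4.46, 12.5 and 8.97 RPKM in retro-orbital tumors 1 to 4, 2.22, 2.58 and 2.93 in cheek tumors 1 to 3, 82.2, 24.5 and 21.3 in meninges tumors 1 to 3, 2.55 in the vestibular nerve tumor and 2.04 in the trigeminal nerve tumor. The 3 meninges tumors lay above every other tumor, the trigeminal nerve tumor included, and meninges 1 was the highest. This gene had the smallest adjusted p of all members in the fit by location (F test, adjusted p = 0.148). Its log2 difference was 3.34 (meninges minus cheek, SE 0.61, adjusted p = 0.0835) against the cheek tumors and 2.40 (meninges minus retro-orbital, SE 0.57, adjusted p = 0.346) against the retro-orbital tumors. In 2 of 17 alternatives the difference from the cheek tumors passed. Without cheek 1, the adjusted p was 0.0459, and the cheek group was then cheek 2 and 3, which share an identifier stem and correlate at r = 0.964 over genes, against 0.854 for the next closest pair of tumors. With the stem as a random block it was 5.9e-05, and with 1 tumor per stem it was 0.626.

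The receptors of Cxcl12 followed other patterns. Cxcr4, the signalling receptor, was at 10.9, 14.7, 25.2 and 10.9 RPKM in retro-orbital tumors 1 to 4, 13.0, 24.8 and 22.8 in cheek tumors 1 to 3, 14.4, 13.3 and 11.7 in meninges tumors 1 to 3, 9.31 in the vestibular nerve tumor and 10.6 in the trigeminal nerve tumor. It spanned the narrowest range of the 7 abundant receptors described here, a 2.70-fold range, and the locations overlapped. The scavenging receptor Ackr3 was at 73.2, 80.5, 24.3 and 127 RPKM in retro-orbital tumors 1 to 4, 5.23, 26.2 and 40.2 in cheek tumors 1 to 3, 92.7, 13.3 and 8.07 in meninges tumors 1 to 3, 8.27 in the vestibular nerve tumor and 14.5 in the trigeminal nerve tumor. It was the receptor with the highest mean, 42.8 ± 40.5 RPKM (SD, n = 12). High and low tumors occurred within each of the 3 larger locations, and retro-orbital 4 and meninges 1 were the highest. Across the 12 tumors, Cxcl12 and Cxcr4 had a rho of 0.406 (permutation p = 0.193, adjusted p = 0.385) and an r of 0.0333 (permutation p = 0.918, adjusted p = 0.942), with r at 0.0976 without meninges 1 and meninges 2, where rho is Spearman's and r is Pearson's coefficient. Cxcl12 and Ackr3 had a rho of 0.210 (permutation p = 0.514, adjusted p = 0.818) and an r of 0.198 (permutation p = 0.538, adjusted p = 0.894), with r at 0.0257 without meninges 1 and meninges 2. The p-values were adjusted over 8 ligand and receptor pairs.

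The ligands of Cxcr2, which recruit neutrophils, were lowest in the meninges tumors among the 3 larger locations. Cxcl1 was at 7.78, 53.8, 39.6 and 3.88 RPKM in retro-orbital tumors 1 to 4, 6.95, 30.6 and 98.8 in cheek tumors 1 to 3, 2.07, 3.49 and 1.72 in meninges tumors 1 to 3, 0.742 in the vestibular nerve tumor and 10.8 in the trigeminal nerve tumor. Cxcl2 was at 2.45, 12.9, 114 and 1.01 RPKM in retro-orbital tumors 1 to 4, 3.03, 6.79 and 15.9 in cheek tumors 1 to 3, 0.302, 0.421 and 0.467 in meninges tumors 1 to 3, 0.130 in the vestibular nerve tumor and 2.83 in the trigeminal nerve tumor. For both genes, the 3 meninges tumors lay below all retro-orbital and cheek tumors, although Cxcl1 in meninges 2 came close to retro-orbital 4. The log2 difference of Cxcl1 was -3.13 (meninges minus cheek, SE 1.05, adjusted p = 0.214) against the cheek tumors and -2.39 (meninges minus retro-orbital, SE 0.99, adjusted p = 0.537) against the retro-orbital tumors. For Cxcl2 the same differences were -2.54 (meninges minus cheek, SE 1.27, adjusted p = 0.339) and -2.88 (meninges minus retro-orbital, SE 1.19, adjusted p = 0.537), and none of the 4 passed. Cxcl5 stood out in a single tumor, at 91.9 RPKM in retro-orbital 3 and 0.114 to 0.852 in the other 11, so that 95.6% of its summed level came from that tumor. Cxcl3, the neighbour of Cxcl1 that carries the same kappaB run, was at 9.51 RPKM there, 2.08 in cheek 3 and 0 to 0.903 elsewhere. Cxcl15 stayed at or below 0.185 RPKM in all tumors.

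Summed over the 5 Cxcr2 ligands, retro-orbital 3 reached 255 RPKM, cheek 3 117 and retro-orbital 2 67.6, while the meninges tumors stayed at 2.63 to 4.25. The summed neutrophil list was highest in the same 3 tumors, mainly through S100a8 and S100a9. The summed level of S100a8, S100a9, Csf3r and Retnlg was 267 RPKM in retro-orbital 3, 110.0 in cheek 3, 67.6 in retro-orbital 2 and 6.31 to 26.0 in the other 9 tumors. The other 2 genes had a different order, with Csf3r highest in meninges 3 (9.23 RPKM) and at 2.49 in cheek 3, and Retnlg at 16.9 in retro-orbital 3, 12.5 in retro-orbital 4 and 1.87 in cheek 3. Cxcr2, the neutrophil receptor of these ligands, was at 4.45 RPKM in retro-orbital 3, 1.21 in retro-orbital 2 and 0.0694 to 0.693 elsewhere. Cxcr1, its close relative, was at 0.639 RPKM in retro-orbital 3 and at 0 to 0.135 in the others. The part of the neutrophil markers in the ligand levels was not tested.

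Retro-orbital 3 had the highest level of 4 further ligands of inflamed tissue or epithelium. Cxcl17, which is made by mucosal epithelia, was at 171 RPKM there, 14.2 in cheek 1 and 0.0895 to 1.66 in the other 10 tumors. Ccl20, the ligand of Ccr6, was at 40.0 RPKM in that tumor and 0 to 0.968 elsewhere. Ccl3 and Ccl4, CC ligands made by activated macrophages, were at 50.8 and 14.0 RPKM there. In the other 11 tumors, Ccl3 was at 1.92 to 5.83 and Ccl4 at 1.12 to 3.79 RPKM.

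Ligands of Ccr2, the receptor that brings monocytes from the blood, were the group with the highest summed level in retro-orbital 2 and 4, at 663 and 949 RPKM. Ccl8 had the highest mean of all members. It was at 6.50, 274, 162 and 732 RPKM in retro-orbital tumors 1 to 4, 37.7, 10.6 and 7.85 in cheek tumors 1 to 3, 43.2, 10.0 and 14.8 in meninges tumors 1 to 3, 15.4 in the vestibular nerve tumor and 31.8 in the trigeminal nerve tumor. Retro-orbital tumors 2, 3 and 4 were high and retro-orbital 1 was the lowest of all 12. Its log2 difference was -2.99 (cheek minus retro-orbital, SE 1.34, adjusted p = 0.422) for the cheek tumors, and the location groups overlapped. Ccl12 was at 44.6, 169, 5.29 and 126 RPKM in retro-orbital tumors 1 to 4, 28.0, 27.4 and 49.2 in cheek tumors 1 to 3, 40.8, 78.2 and 37.4 in meninges tumors 1 to 3, 19.4 in the vestibular nerve tumor and 9.78 in the trigeminal nerve tumor. Ccl2, the main monocyte attractant of mouse and human, was at 34.7, 167, 40.7 and 39.8 RPKM in retro-orbital tumors 1 to 4, 17.1, 22.0 and 67.9 in cheek tumors 1 to 3, 7.58, 93.2 and 26.6 in meninges tumors 1 to 3, 8.78 in the vestibular nerve tumor and 23.0 in the trigeminal nerve tumor. Both peaked in retro-orbital 2, and neither separated the locations, with adjusted p = 0.903 and adjusted p = 0.675 in the F test. Ccl7, a further ligand of the same locus, was highest in retro-orbital 2 and 4, at 52.9 and 51.9 RPKM, and at 2.41 to 28.2 elsewhere. Ccl2, Ccl7, Ccl12 and Ccl8 are neighbours on chromosome 11, between 82035571 and 82116799 on GRCm38, yet in retro-orbital 3 the level of Ccl8 was 162 RPKM and those of Ccl12 and Ccl7 were 5.29 and 2.41, their lowest in any tumor.

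The Ccr1 ligand Ccl6, which mouse macrophages make, was high in the same tumors as Ccl8. Its level was 7.17, 318, 120.0 and 205 RPKM in retro-orbital tumors 1 to 4, 11.8, 5.36 and 5.22 in cheek tumors 1 to 3, 12.9, 15.9 and 5.63 in meninges tumors 1 to 3, 8.11 in the vestibular nerve tumor and 18.1 in the trigeminal nerve tumor. Ccl9, its neighbour on chromosome 11 and also a Ccr1 ligand, was at 129, 56.9 and 102 RPKM in retro-orbital 2, 3 and 4 and at 4.0 to 15.6 in the other 9 tumors. Both genes thus had 3 high tumors, all retro-orbital, with retro-orbital 1 among the low ones. The log2 difference of Ccl6 was -3.49 (cheek minus retro-orbital, SE 1.08, adjusted p = 0.294) for the cheek tumors and -2.95 (meninges minus retro-orbital, SE 1.08, adjusted p = 0.514) for the meninges tumors. With retro-orbital 1 left out, Ccl6 passed in the F test (adjusted p = 0.0344) and against the cheek tumors (adjusted p = 0.0359), and Ccl9 in the F test (adjusted p = 0.0444). The macrophage gene Mrc1, which marks a mannose receptor, was at 348 and 318 RPKM in retro-orbital 2 and 4, 73.0 in retro-orbital 3 and 16.5 to 67.2 elsewhere. The summed macrophage list was highest in retro-orbital 2 and 4, at 3210.2 and 2599.6 RPKM. In retro-orbital 3 it was 1257 RPKM, below the 3 meninges tumors (1338 to 2154) and the trigeminal nerve tumor (1563), and its part in the levels of Ccl6, Ccl8 and Ccl9 was not tested.

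Ccl5, a CC ligand made by T cells, NK cells and activated stroma, was at 92.7, 13.0, 21.2 and 19.5 RPKM in retro-orbital tumors 1 to 4, 17.1, 41.8 and 86.4 in cheek tumors 1 to 3, 26.6, 26.3 and 50.6 in meninges tumors 1 to 3, 4.31 in the vestibular nerve tumor and 86.3 in the trigeminal nerve tumor. Its high tumors, retro-orbital 1, cheek 3 and the trigeminal nerve tumor, came from 3 locations. The eosinophil attractant Ccl11 was at 96.5 RPKM in meninges 2 and 1.07 to 22.1 in the other tumors. Ccl24, which binds the same receptor Ccr3, was at 35.3 RPKM in retro-orbital 4, 5.73 in retro-orbital 2 and 0 to 1.79 elsewhere. The Ccr4 ligands Ccl17 and Ccl22, products of dendritic cells, were also highest in retro-orbital 4, at 15.8 and 11.4 RPKM, against at most 4.36 and 3.13 in the other tumors. Ccl26, another Ccr3 ligand, was above 0 only in meninges 3, at 0.398 RPKM.

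Cxcl16 and Cx3cl1 are the chemokines with a membrane anchor. Cxcl16, which also acts as a scavenger receptor, was at 92.0, 38.4, 38.4 and 94.9 RPKM in retro-orbital tumors 1 to 4, 33.3, 18.7 and 26.3 in cheek tumors 1 to 3, 52.6, 61.6 and 65.7 in meninges tumors 1 to 3, 20.5 in the vestibular nerve tumor and 55.4 in the trigeminal nerve tumor. The 3 cheek tumors lay below all retro-orbital and meninges tumors, and the retro-orbital and meninges tumors overlapped. The log2 difference was -1.21 (cheek minus retro-orbital, SE 0.37, adjusted p = 0.287) for the first and 1.20 (meninges minus cheek, SE 0.39, adjusted p = 0.209) for the second comparison, and neither passed. Cx3cl1, made by neurons and endothelium, was at 115, 29.3, 37.8 and 42.5 RPKM in retro-orbital tumors 1 to 4, 4.36, 33.3 and 26.6 in cheek tumors 1 to 3, 18.3, 7.28 and 23.1 in meninges tumors 1 to 3, 5.71 in the vestibular nerve tumor and 70.2 in the trigeminal nerve tumor. Retro-orbital 1 was the highest and cheek 1 the lowest.

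Among the remaining homeostatic ligands, Cxcl14 reached the highest single value. It was at 9.70, 95.3, 3.90 and 17.2 RPKM in retro-orbital tumors 1 to 4, 4.94, 3.12 and 2.82 in cheek tumors 1 to 3, 10.7, 455 and 9.16 in meninges tumors 1 to 3, 2.33 in the vestibular nerve tumor and 3.83 in the trigeminal nerve tumor. Meninges 2 held 73.6% of the summed level. Cxcl13, the B cell attractant, was highest in the same tumor, at 73.9 RPKM, with 31.1 in the trigeminal nerve tumor and 1.78 to 20.1 elsewhere. The B cell list was also highest there, at 9.78 RPKM against 0.516 to 4.60, and its part was not tested. Ccl28, an attractant of mucosal lymphocytes, was low but higher in every retro-orbital tumor (1.37 to 5.84 RPKM) than in the cheek (0.446 to 0.708) and meninges tumors (0.356 to 0.751). Ccl28 met the filter only through the retro-orbital tumors, so this order was partly fixed by the filter. Its log2 difference was -1.31 (cheek minus retro-orbital, SE 0.38, adjusted p = 0.271) and -1.34 (meninges minus retro-orbital, SE 0.38, adjusted p = 0.445). Ccl25, known for the thymus and small intestine, was the steadiest ligand, at 2.53 to 6.35 RPKM over all tumors, with the retro-orbital tumors (2.53 to 3.37) just below the others of the larger locations. Ccl27a, the skin ligand of Ccr10, was at 0.579 to 7.31 RPKM. Only uniquely mapped reads were kept, so reads shared with the near-identical Ccl27b would be missing and these values are uncertain. Ccl1, Xcl1 and Ccl19 reached at most 2.40, 1.59 and 0.122 RPKM.

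**Figure D3:**
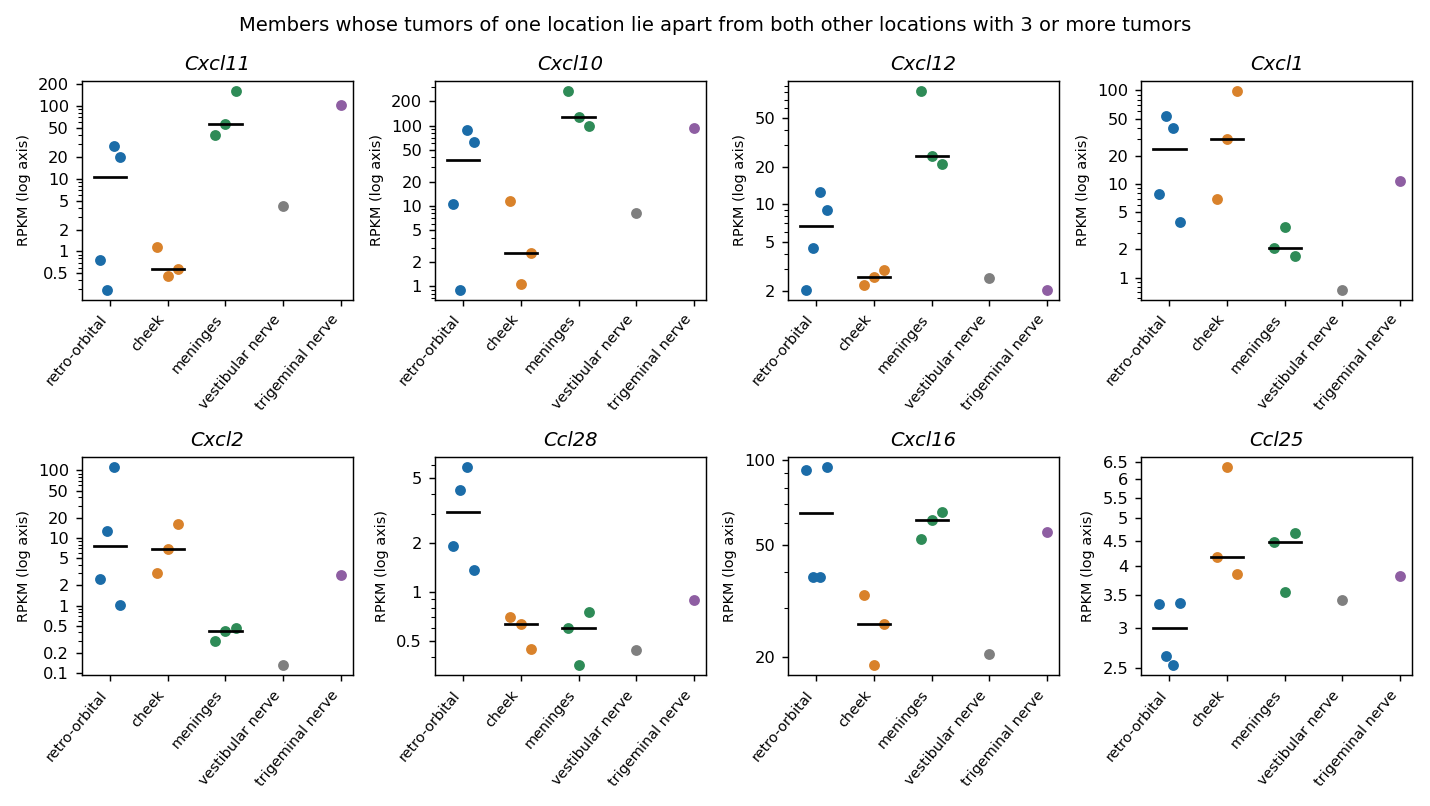
RPKM on log axes of the 8 members whose tumors of 1 location lie wholly above or below both other locations with at least 3 tumors, 1 point per tumor, with black lines at the location medians. Cxcl10, Cxcl11 and Cxcl12 are highest in the meninges, where Cxcl1 and Cxcl2 are lowest; Ccl28 is highest and Ccl25 lowest in the retro-orbital tumors, and Cxcl16 is lowest in the cheek.

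Receptors of monocytes and macrophages were measured in all 12 tumors. Ccr1 was at 13.4, 68.6, 12.2 and 33.9 RPKM in retro-orbital tumors 1 to 4, 14.6, 37.3 and 30.4 in cheek tumors 1 to 3, 12.7, 31.7 and 8.24 in meninges tumors 1 to 3, 5.68 in the vestibular nerve tumor and 4.57 in the trigeminal nerve tumor. Retro-orbital 2 was the highest and the trigeminal nerve tumor the lowest, and the locations overlapped. Cx3cr1, the receptor of Cx3cl1 that marks microglia and resident macrophages, was at 26.2, 3.10, 2.66 and 14.3 RPKM in retro-orbital tumors 1 to 4, 10.2, 17.7 and 15.5 in cheek tumors 1 to 3, 19.7, 69.1 and 23.5 in meninges tumors 1 to 3, 9.56 in the vestibular nerve tumor and 5.94 in the trigeminal nerve tumor. Meninges 2 was the highest, and retro-orbital 2 and 3 were the lowest. Ccr2, the receptor of recruited monocytes, was at 9.28, 10.0, 1.41 and 36.9 RPKM in retro-orbital tumors 1 to 4, 3.56, 2.48 and 2.34 in cheek tumors 1 to 3, 3.62, 35.8 and 5.65 in meninges tumors 1 to 3, 0.736 in the vestibular nerve tumor and 1.30 in the trigeminal nerve tumor. Retro-orbital 4 and meninges 2 stood above the rest, and the vestibular nerve tumor was the lowest.

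Of the lymphocyte and dendritic cell receptors, Ccr7 and Cxcr6 were the most abundant. Ccr7, which leads dendritic cells and naive T cells to lymph nodes, was at 0.168, 0.534, 5.78 and 33.0 RPKM in retro-orbital tumors 1 to 4, 18.6, 0.559 and 0.575 in cheek tumors 1 to 3, 13.9, 11.1 and 12.5 in meninges tumors 1 to 3, 0.642 in the vestibular nerve tumor and 1.43 in the trigeminal nerve tumor. It separated into high and low tumors within the retro-orbital and cheek groups. Of its ligands, Ccl19 was above 0 in cheek 1 only, and Ccl21a, Ccl21b and Ccl21c were listed at 0. The zeros of the Ccl21 genes are uncertain, since these have near-identical copies and only uniquely mapped reads were kept. Cxcr6, the receptor of Cxcl16 on T cells and NKT cells, was at 5.07, 1.13, 2.17 and 4.32 RPKM in retro-orbital tumors 1 to 4, 1.92, 3.11 and 3.32 in cheek tumors 1 to 3, 1.90, 5.10 and 6.83 in meninges tumors 1 to 3, 1.21 in the vestibular nerve tumor and 2.84 in the trigeminal nerve tumor. The other receptors of this group, Ccr4, Ccr6, Ccr8, Ccr9, Ccr10, Cxcr3 and Cxcr5, reached at most 1.31, 1.46, 2.37, 2.81, 2.31, 3.53 and 0.250 RPKM in that order. Retro-orbital 4 was the highest tumor for Ccr2, Ccr3, Ccr4, Ccr7, Ccr8, Ccr9, Cxcr3 and Cxcr5. It also had the highest summed T cell, NK cell and dendritic cell lists, at 33.4, 7.80 and 23.1 RPKM, against at most 16.8, 4.62 and 14.4 in the other tumors. Not every gene of these lists peaked there, as Clec9a was highest in retro-orbital 1 and Itgae in meninges 3. Klrb1c, Cd8a and Cd8b1 were highest in meninges 2. The part of these cells in the receptor levels was not tested. Ccr3, the eosinophil receptor, was at 0.0444 to 2.25 RPKM.

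**Figure D4:**
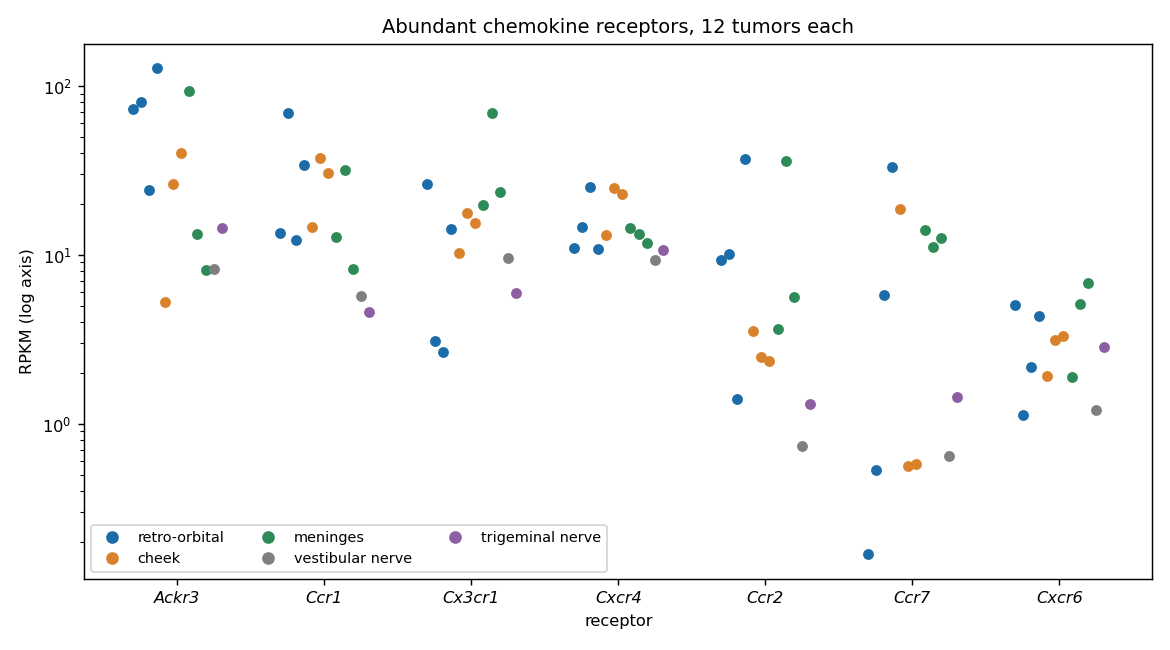
RPKM on a log axis of 7 of the 8 receptors with the highest means, 1 point per tumor colored by location, in the order retro-orbital, cheek, meninges, vestibular nerve and trigeminal nerve within each gene. The points of Cxcr4 lie close together, whereas Ackr3, Ccr2 and Ccr7 span wide ranges with the locations intermingled.

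Whether location set the members apart was tested with limma on log2(RPKM + 1) in the 10 tumors of the 3 larger locations. None of the 38 members passed an adjusted p of 0.05 in the F test over locations, where 0.0407% of the 14745 genes (6 genes) did. Before adjustment, 7 members were under 0.05 against 14.3% of all genes, and these were Cxcl12, Cxcl11, Ccl28, Cxcl10, Cxcl16, Ccl6 and Cxcl1. Between cheek and retro-orbital tumors, 0 members passed (0.0271% of all genes) and 5 were under 0.05 before adjustment (12.0% of all genes). Of these 5, Ccl1 and Ccl28 met the filter only through retro-orbital tumors, their high group. Between meninges and retro-orbital tumors, 0 passed (0.0203% of all genes) and 11 were under 0.05 before adjustment (9.14% of all genes). Between meninges and cheek tumors, 0 passed (0.0475% of all genes) and 7 were under 0.05 before adjustment (17.0% of all genes). The 7 members in the F test are close to the share over all genes. So are the 5 between cheek and retro-orbital tumors and the 7 between meninges and cheek tumors. With the identifier stem as a random block, an alternative added after seeing the data, 7 members passed in the F test, where 2802 genes did, and 9 between meninges and cheek tumors, where 4243 genes did. That fit rests on a within-stem correlation of 0.93 estimated from the 2 stems that hold 2 tumors each (cheek 2 with cheek 3, and cheek 1 with meninges 1), and with 1 tumor per stem no gene passed in any of the 4 tests. The 3 contrasts share tumors and are not independent.

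The median log2 difference of the 38 members was -0.85 for cheek minus retro-orbital tumors, against -0.02 over all genes, and 29 of the 38 were lower in the cheek tumors. The summed leukocyte list of 5 genes was 73.1 to 84.0 RPKM in the cheek and 122 to 273 in the retro-orbital tumors, with Ptprc at a log2 difference of -1.32 (cheek minus retro-orbital, SE 0.39, adjusted p = 0.28), and its part in the members' levels was not tested. The members' median was -0.07 for meninges minus retro-orbital tumors (0.13 over all genes) and 0.42 for meninges minus cheek tumors (0.16 over all genes). A location lay wholly above or below both others for 8 members, against 11.1% of all genes tested. The 8 were Cxcl10, Cxcl11 and Cxcl12 (meninges above), Cxcl1 and Cxcl2 (meninges below), Ccl28 (retro-orbital above), Ccl25 (retro-orbital below) and Cxcl16 (cheek below). Ccl28 and Ccl1 met the filter only through their high group. The place of Ccl28 here, and of both among the members under 0.05 before adjustment, was therefore partly fixed by the filter. The same holds for their place among the 29 members lower in the cheek tumors.

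How the members followed leukocyte content was asked by correlating them with Ptprc over the 12 tumors. Among the 38 members, 2 passed an adjusted p of 0.05 by Spearman's rho, against 0.632% of 15042 genes. Cxcl14 had a rho of 0.937 (permutation p = 1e-05, the smallest that 100000 resamples can give, adjusted p = 0.0188) and a Pearson's r of 0.796 (permutation p = 5.8e-04, adjusted p = 0.0450). Ccr2 had a rho of 0.895 (permutation p = 2.3e-04, adjusted p = 0.0417) and an r of 0.914 (permutation p = 8e-05, adjusted p = 0.0182). Without the 2 tumors farthest from the median of Ptprc, retro-orbital 4 and meninges 2, r was 0.834 for Cxcl14 and 0.818 for Ccr2. Next came Cxcl16 with a rho of 0.846 (permutation p = 9.7e-04, adjusted p = 0.0839), and an r of 0.802 (permutation p = 0.0023, adjusted p = 0.0853), which did not pass. In all, 9 members had a positive rho under 0.05 before adjustment, against 8.24% of all genes. The median rho was 0.36 over the 38 members and 0.01 over all genes, and 33 of the 38 were above 0. The calls of Cxcl14 and Ccr2 depended on single tumors, since leaving out each tumor in turn gave 0 to 2 members (0 without retro-orbital 4, any cheek tumor, meninges 2 or either nerve tumor), although rho stayed at 0.918 or more for Cxcl14 and at 0.864 or more for Ccr2. With 1 tumor per identifier stem or with quantile normalization, no member passed.

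**Figure D5:**
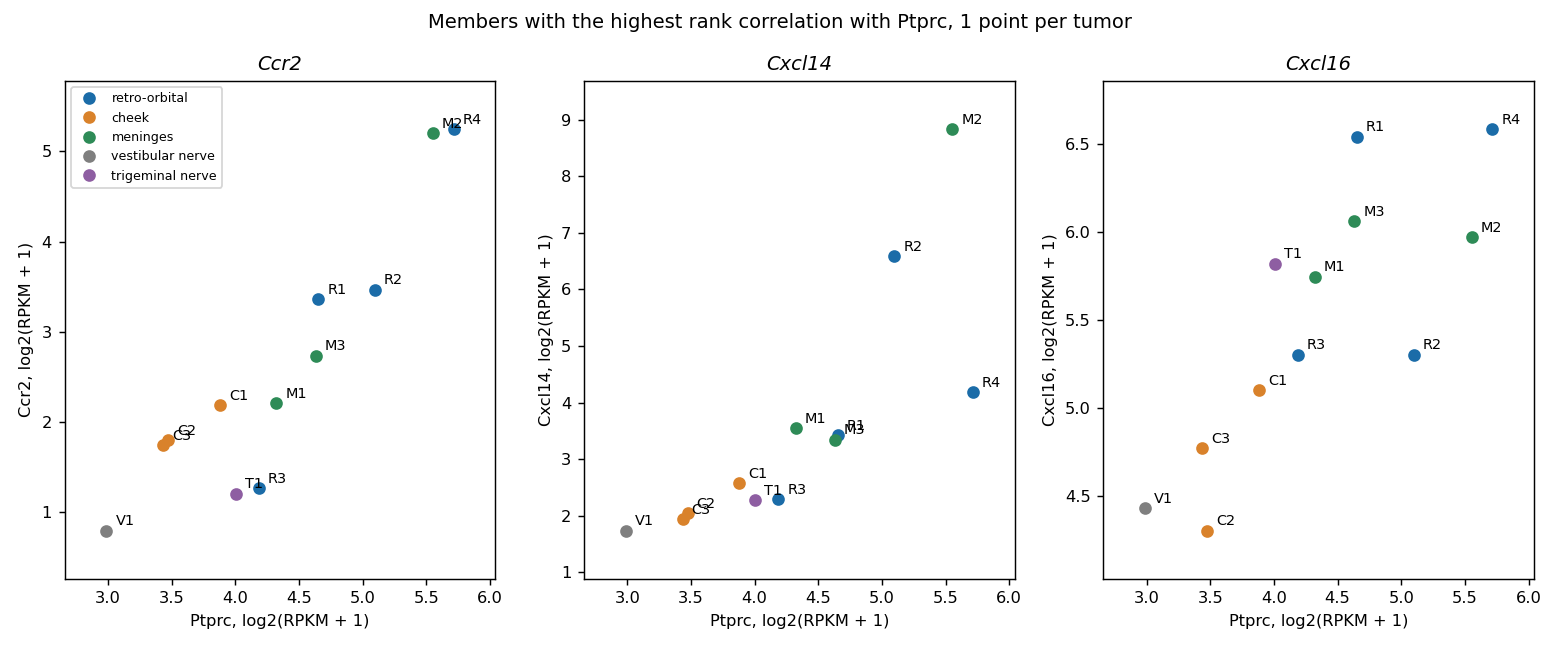
Ccr2, Cxcl14 and Cxcl16 against Ptprc, all as log2(RPKM + 1), with 1 point per tumor named by the first letter of its location and its number. All 3 are low in the vestibular nerve tumor (V1), where Ptprc is lowest, and meninges 2 (M2) lies far above the other tumors for Cxcl14.

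Of 16 known ligand and receptor pairs, 8 had both genes past the filter, and none of the 8 was correlated at an adjusted p of 0.05 by rho or r over the 12 tumors. Cxcl16 and its receptor Cxcr6 had a rho of 0.566 (permutation p = 0.0591, adjusted p = 0.385) and an r of 0.599 (permutation p = 0.0401, adjusted p = 0.292), with r at 0.625 without cheek 2 and vestibular nerve 1. Ccl2 and Ccr2 had a rho of 0.455 (permutation p = 0.139, adjusted p = 0.385) and an r of 0.533 (permutation p = 0.0729, adjusted p = 0.292), with r at 0.591 without retro-orbital 2 and meninges 1. Cx3cl1 and Cx3cr1 had a rho of -0.126 (permutation p = 0.699, adjusted p = 0.818) and an r of -0.187 (permutation p = 0.559, adjusted p = 0.894), with r at -0.415 without cheek 1 and vestibular nerve 1. None of the 8 was under 0.05 before adjustment by rho. The rho was above 0 for 5 of the 8 pairs.

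Genes that act around the receptors were measured as well, in a list of 33. It held the scavenging receptors Ackr1, Ackr2 and Ackr4, the platelet chemokines Pf4 and Ppbp, the inhibitory G proteins and the Rac, Dock2 and Vav1 path to the cytoskeleton. Of these, 31 passed the filter and 0 passed an adjusted p of 0.05 in any of the 4 location tests, where 0.0203% to 0.0475% of all genes did. With Ptprc over 12 tumors, 2 of the 31 passed by Spearman's rho, the leukocyte genes Dock2 (rho 0.958, adjusted p = 0.0188) and Vav1 (rho 0.902, adjusted p = 0.0358) by permutation tests, against 0.632% of all genes. Pf4, a platelet product, was at 1.05 to 53.1 RPKM, and its highest tumors were retro-orbital 2 (53.1), cheek 3 (43.7) and retro-orbital 4 (34.9). Ackr1, a scavenger on venules and red cells, was at 10.5 RPKM in retro-orbital 1 and 0.0914 to 4.20 in the others.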

How the data were processed

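RNA-seq values of 12 tumors were analysed, with locations taken from the sample labels. The authors made ribosome-depleted stranded libraries, sequenced them as 1 pool, demultiplexed with bcl2fastq 2.17, mapped reads to mm10 with STAR, kept unique reads and counted them with HTSeq, and deposited RPKM values per gene. edgeR and limma are also named in their processing notes. The transcript lengths and the read totals behind the RPKM are not given in the sources used here, so the fragments per library were worked out from the smallest differences between low values. The numbers of reads limit low members most. No 2 tumors had identical values, and cheek 2 and cheek 3, which share an identifier stem, were the closest pair (r = 0.964 over genes, next 0.854).

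Values were tested as log2(RPKM + 1) with limma 3.58.1 in R 4.3.3 (trended, robust, Benjamini-Hochberg threshold 0.05), for genes at 1 RPKM or more in at least 3 tumors, in the 10 tumors of locations with 3 or more. A fold change on this scale understates the change of low genes. The labels do not say that tumors came from separate animals, so p-values measure the spread between these tumors. Correlations over 12 tumors used permutation tests with 100000 resamples, two-sided (Python 3.11.15, scipy 1.17.1). Scripts were tested on simulated data. Values in every tumor are given for the 10 ligands and 8 receptors with the highest means and for the 5 members with the widest spread between locations whose tumors of 1 location lay apart from both others, and for members that passed a test. Alternatives were a pseudocount of 0.1, no filter, a filter of 5 RPKM, quantile normalization, a constant prior variance, 1 tumor per identifier stem, each tumor left out, 4 other leukocyte genes in place of Ptprc and, added after seeing the data, the identifier stem as a random block. Members and gene lists were chosen with earlier results of these data known. The values of 1 receptor and 1 marker gene are not reported here, though both stay in the counts and sums.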

Additional observations from a re-analysis of the deposited data

Results flagged for a closer look

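In 2 of the 38 members, a single retro-orbital tumor stood apart from the other 3 by Dixon's test on log2(RPKM + 1), in which the gap to the nearest tumor is divided by the range of the group. Ccl2 in retro-orbital 2 had a ratio of 0.900, with 166.9 RPKM against 34.7 to 40.7 in the other retro-orbital tumors. Ccl4 in retro-orbital 3 had a ratio of 0.863, with 14.0 RPKM against 2.47 to 3.24. Over all genes tested, 7.24% were set apart in the same way, and chance gives about 1 in 20.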

How the results depend on the processing

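No paired analysis was possible because the labels give no replicate numbers and 1 identifier stem alone (cheek 1 and meninges 1) spans 2 of the locations compared. The stem was instead used as a random block, an alternative added after seeing the data. Over 236 alternative fits of the 14 log2 differences of 7 members, 0 reversed and 6 passed, 2 with 1 tumor left out and 4 with the stem block. The number of members called was 0 in each location test under all settings that keep every tumor except the stem block, which called 7 members in the F test and 9 for meninges against cheek. Over all genes that block called 2802 in the F test, 2 for cheek against retro-orbital and 4243 for meninges against cheek, with a within-stem correlation of 0.93 from 2 stems. With 1 tumor left out it was 0 to 2 in the F test, 0 to 1 for cheek against retro-orbital and 0 to 1 for meninges against cheek. Over all genes, the F test called 6 genes, against 10 without a filter, 3 with a filter of 5 RPKM, 19 with a constant prior variance and 0 with 1 tumor per identifier stem, and 0 to 198 with 1 tumor left out (198 without cheek 1, 56 without retro-orbital 3). Cheek against retro-orbital called 4 genes, against 2 without a filter, 0 by stem and 0 to 147 with 1 tumor left out (147 without cheek 1). Meninges against retro-orbital called 3 genes, against 7, 1, 6 and 0 under the filter, stricter filter, prior and stem alternatives, and 0 to 41 with 1 tumor left out (41 without retro-orbital 3). Meninges against cheek called 7 genes, against 2 with a pseudocount of 0.1, 18 without a filter, 1 with the stricter filter, 13 with quantile normalization, 22 with a constant prior, 0 by stem, and 0 to 527 with 1 tumor left out (527 without cheek 1, 65 without retro-orbital 3). Members correlated with Ptprc were 2, against 0 with quantile normalization, 0 by stem, 0 with the mean of 4 other leukocyte genes and 0 to 2 with 1 tumor left out. The cause of these changes was not tested.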
